A study of Mus musculus with 17 samples.

Results

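Interferon-stimulated genes are the genes that cells switch on when interferon, or foreign RNA or DNA, is sensed. A list of 40 of them was followed across the 17 arrays and 6 groups of the series, out of 19937 genes that could be tested. For each listed gene the probe set was chosen by its brightness: of the probe sets that carry a single gene symbol, the one with the highest mean over all arrays was taken, and 36 of the 40 genes had one. Isg15, Igtp and Gbp2 were met only on probe sets that carry several gene symbols, and Ifi44 was matched to none, so these 4 were not analysed here. The list was drawn up with earlier results of these arrays known, so counts over its members describe them and are no independent test of the list.

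The arrays hold RNA of CD31+CD45−Ter119− cells, a sort that leaves out cells with the leukocyte marker CD45 and the red cell marker Ter119, of the aorta-gonad-mesonephros (AGM) region of pooled E11.5 mouse embryos, the region in which the first haematopoietic stem cells emerge from endothelium. Cells were kept for 2 h on OP9 stromal cells, a mouse stromal line, that overexpress the Notch ligand Jag1 (OP9-Jag1) or the Notch ligand Dll4 (OP9-Dll4), in a medium with growth factors and cytokines shared by both cultures, and were then sorted again by the surface receptor Kit. The groups are Kit+J (Kit+ cells after OP9-Jag1, 3 arrays), Kit−J (Kit− cells after OP9-Jag1, 2 arrays), Kit+D and Kit−D (the same gates after OP9-Dll4, 3 arrays each), and the uncultured Kit+ and Kit− cells, here called fresh (3 arrays each). The labels give no genotype or strain. There was no culture on OP9 cells without an added ligand, and the fresh arrays were first made for an earlier series, so culture, stroma and array set cannot be told apart in any comparison with fresh cells. Values are log2 signals, so a difference of 1 is a doubling.

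In the textbook pathway, interferons bind receptors at the cell surface, the receptor-bound kinases Jak1 and Tyk2 pass the signal on, and a complex that holds Stat2 and Irf9 binds an interferon-stimulated response element (ISRE) in promoters. The products include sensors of viral RNA, proteins that block viral entry, translation or release, and parts of the machinery that presents peptides to T cells. The same genes have been studied in the AGM region because inflammatory signals, interferon among them, take part in the emergence of haematopoietic stem cells.

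Several arrays stood apart from their labels or from their group, and the results below rest partly on them. The Kit signal itself was 9.93, 9.02 and 9.30 in Kit+J, 9.08 and 8.50 in Kit−J, 8.98, 8.51 and 9.0 in Kit+D, 7.72, 7.05 and 8.02 in Kit−D, 9.55, 9.44 and 9.54 in fresh Kit+ and 8.29, 8.21 and 8.13 in fresh Kit−. Kit was therefore higher on Kit+ than on Kit− arrays in the fresh and the OP9-Dll4 cells, and the 2 gates overlapped after OP9-Jag1. The mean of 13 endothelial markers, relative to the fresh Kit− mean, came to −2.19 and −1.82 in Kit−J, closer to fresh Kit+ (−2.76 to −2.45) than to Kit−D (0.19 to 0.66). One descriptive line of the labels names the opposite Kit population for both Kit−J arrays and for replicate 3 of Kit−D and of Kit+D, and groups were taken from titles and sources. Replicate 1 of both OP9-Dll4 groups stood apart in another way: the mean of 18 leukocyte and macrophage markers was 1.73 on Kit+D replicate 1, against −1.31 and −1.92 on the other Kit+D arrays, and 0.54 on Kit−D replicate 1, against −1.72 and −1.77 on the other Kit−D arrays. All 18 markers were highest on replicate 1 in each of these groups, although the gate was CD45−. The same held in fresh Kit− cells, where the marker mean was 0.60 on replicate 1, against −0.24 and −0.36 on the other arrays. In sorted populations of this kind, fewer cells of a type and less RNA per cell cannot be told apart.

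The members were highest in 2 places: on the Kit−J arrays, and on replicate 1 of the OP9-Dll4 cultures. The mean over the 36 members, relative to the fresh Kit− mean, was 0.50, 0.26 and 0.45 in Kit+J, 0.99 and 0.95 in Kit−J, 1.44, 0.02 and −0.04 in Kit+D, 0.57, −0.30 and −0.07 in Kit−D, 0.09, −0.04 and 0.03 in fresh Kit+ and 0.10, 0.04 and −0.13 in fresh Kit−. All 5 OP9-Jag1 arrays lay above all 6 fresh arrays, and the OP9-Dll4 groups spanned both levels. These means are a description over members with no test.

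**Figure D1:**
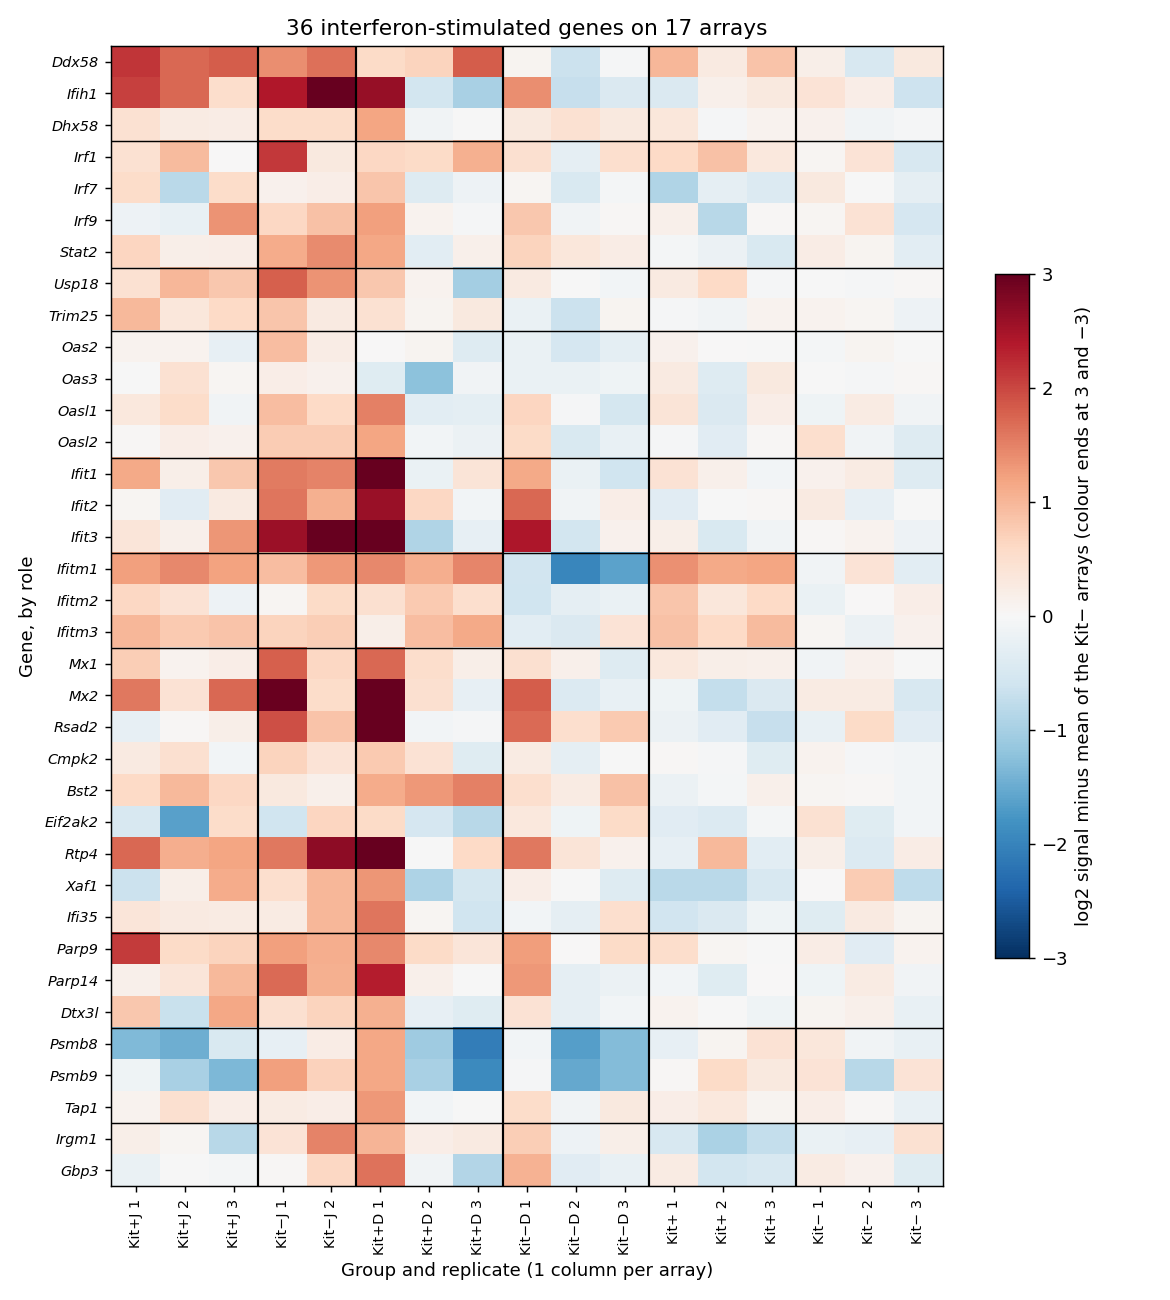
Log2 signal of the 36 members (rows, grouped by role) on the 17 arrays (columns, by group and replicate), each as the difference from that gene's mean in fresh Kit− cells, with colours ending at 3 and −3. The Kit−J columns and replicate 1 of Kit+D are red over most roles, whereas the Ifitm1 row is red in every Kit+ group and in Kit−J and blue on all 3 Kit−D arrays.

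Single members were tested with limma in 1 model over all 17 arrays, with Benjamini-Hochberg adjustment over all 19937 genes, and are said to have risen or fallen where the adjusted p was under 0.05. Set against fresh Kit− cells, Kit−J cells had 2 of 36 members that rose, Ddx58 and Usp18, and 0 that fell, where 2.14% of all genes passed, so the share called, 5.56%, rests on 2 genes. With a looser reading 17 of 36 members had an unadjusted p under 0.05, as had 13.7% of all genes. Of the member differences 35 of 36 were positive, where 61.4% of all genes were. The median member difference was 0.76, against 0.09 over all genes. For 26 of 36 members both Kit−J arrays lay above all 3 fresh Kit− arrays, which 19.7% of all genes did. Set against fresh Kit+ cells, Kit+J cells had 0 members that passed, where 0.0201% of all genes passed. An unadjusted p under 0.05 was met by 4 of 36 members (Ddx58, Trim25, Bst2 and Parp9, all positive) and by 6.67% of all genes. The median member difference was 0.42 there, against 0.00 over all genes, and 10 of 36 members had every Kit+J array above every fresh Kit+ array, against 5.67% of all genes.

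In Kit+D against fresh Kit+ cells 1 member, Bst2, rose and 0 fell, where 1.42% of all genes passed. In Kit−D against fresh Kit− cells 0 members passed, where 0.171% of all genes passed. An unadjusted p under 0.05 was met by 2 of 36 members (Bst2 positive, Ifitm1 negative) and by 11.2% of all genes. The median member differences were 0.41 in the Kit+ gate and 0.09 in the Kit− gate, with −0.02 over all genes in both. The median standard deviation of a member was 0.772 in Kit+D and 0.448 in Kit−D, against 0.257 and 0.161 over all genes.

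Between the ligands, 5 of 36 members rose and 0 fell in Kit−J against Kit−D cells (Ifitm1, Ddx58, Oas2, Usp18 and Trim25), where 9.37% of all genes passed. The share called, 13.9%, was near that of all genes only with both directions counted. Of all 19937 genes, 658 were higher and 1211 lower. Members with both Kit−J arrays above all Kit−D arrays numbered 21 of 36, where 28.9% of all genes did so, and the median difference was 0.81, against 0.11 over all genes. In Kit+J against Kit+D cells 0 members passed, where 2.25% of all genes passed. An unadjusted p under 0.05 was met by 4 of 36 members and by 19.1% of all genes. The median difference was −0.09 there. The difference between the 2 ligand effects was tested directly as an interaction, Jag1 minus Dll4 in the Kit+ gate minus the same in the Kit− gate. There 1 member, Ifitm1, was negative and passed, where 1.98% of all genes passed. Of the member estimates 35 of 36 were negative, while 44.2% of all genes had a positive estimate. The like interaction for OP9-Jag1 against fresh cells called 0 members and 0.582% of all genes. An unadjusted p under 0.05 was met by 5 of 36 members and by 9.44% of all genes.

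Between the gates, Kit+D against Kit−D cells gave 5 members that rose and 0 that fell (Ifitm1, Ifitm2, Bst2, Ddx58 and Ifitm3). With both directions counted, 13.1% of all genes passed, near the 13.9% of members. Of all 19937 genes, 1296 were higher and 1319 lower. Fresh Kit+ against fresh Kit− cells gave 1 that rose, Ifitm1, and 0 that fell, where 3.23% of all genes passed. Kit+J against Kit−J cells gave 0, where 0.0903% of all genes passed. An unadjusted p under 0.05 was met by 8 of 36 members (1 positive, 7 negative) and by 10.7% of all genes. Of the member differences 30 of 36 were negative with a median of −0.53. Over all genes 46.2% were positive, with a median of −0.03. Comparisons that share a group, such as Kit−J against Kit− and Kit−J against Kit−D, share arrays and are not independent of each other.

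**Figure D2:**
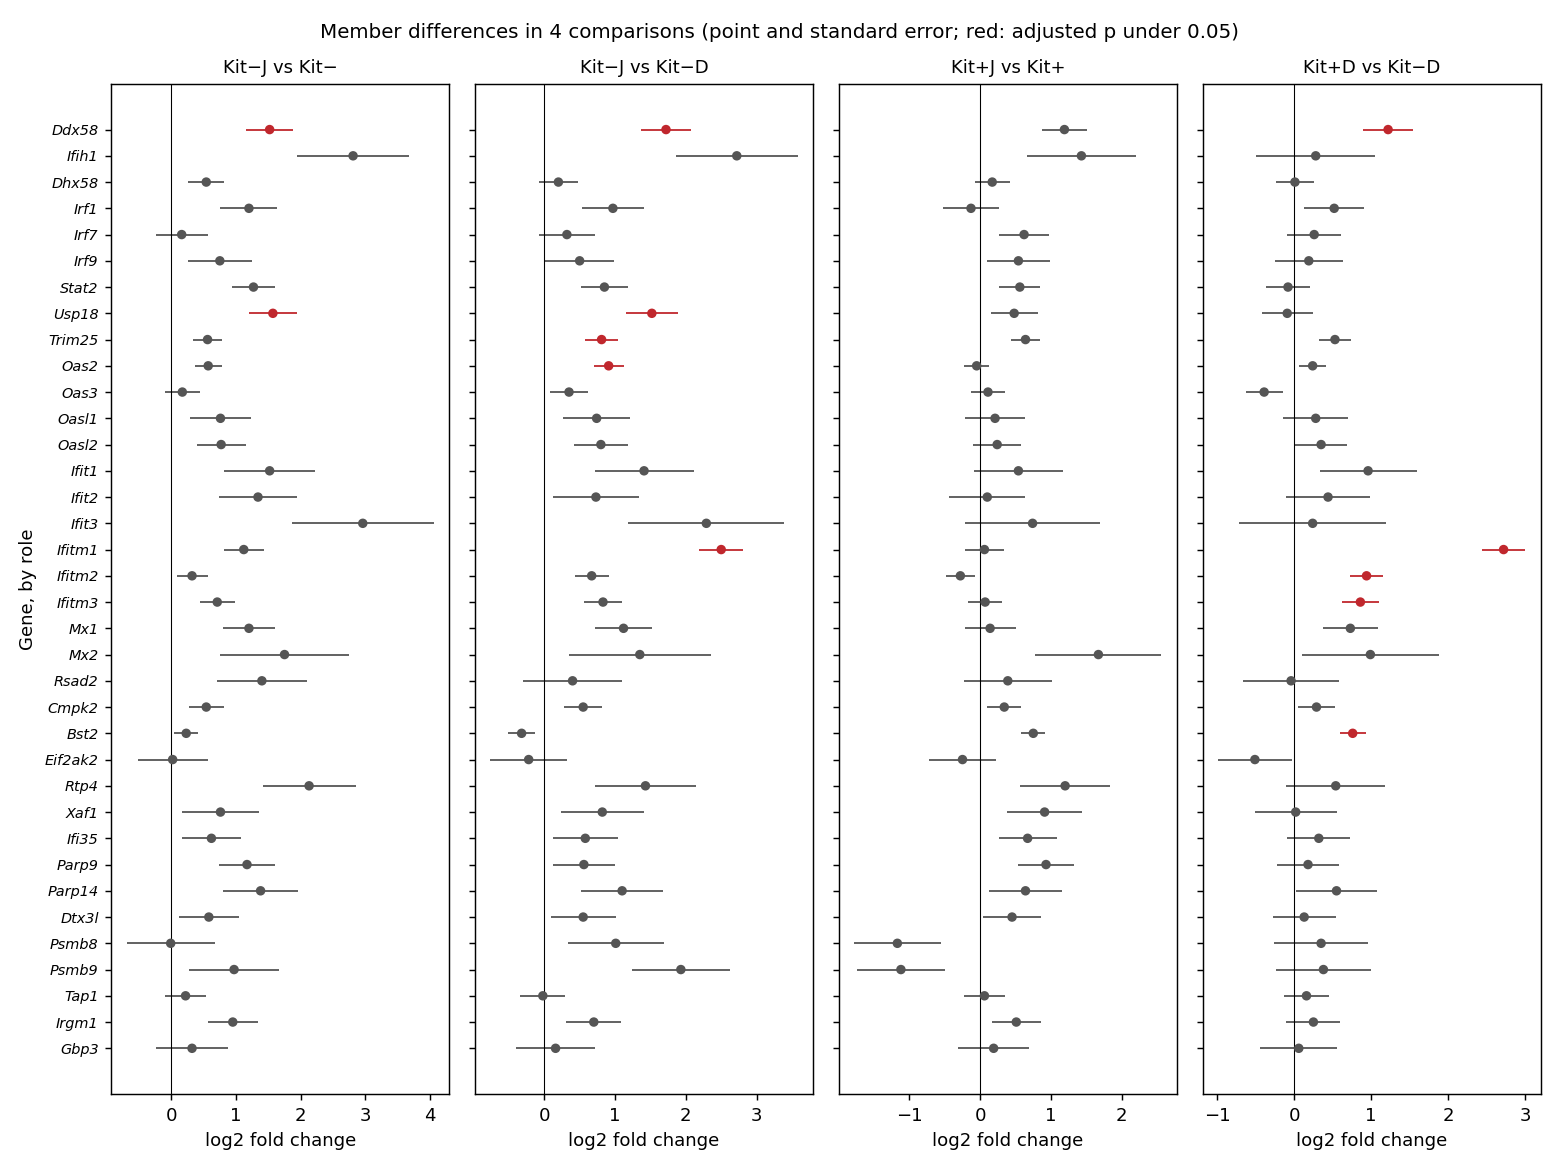
Log2 difference of each of the 36 members (points, with standard errors from the 1 limma model) in Kit−J against Kit−, Kit−J against Kit−D, Kit+J against Kit+ and Kit+D against Kit−D, with members at an adjusted p under 0.05 in red. The number in red is 2, 5, 0 and 5, and the widest bars belong to Ifit3, Mx2 and Ifih1, whose values split within the OP9-Dll4 groups.

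The RNA sensors come first in the pathway's order. Ddx58 (RIG-I) and Ifih1 (MDA5) recognise viral double-stranded RNA, and Dhx58 (LGP2) modulates them. The Ddx58 signal was 8.65, 8.22 and 8.31 in Kit+J, 7.88 and 8.16 in Kit−J, 7.07, 7.17 and 8.32 in Kit+D, 6.59, 5.85 and 6.46 in Kit−D, 7.49, 6.76 and 7.34 in fresh Kit+ and 6.68, 6.03 and 6.79 in fresh Kit−. All 5 OP9-Jag1 arrays lay above all fresh arrays, and 1 OP9-Dll4 array, Kit+D replicate 3, reached their level. Ddx58 rose in Kit−J against Kit− cells by a log2 difference of 1.52 ± 0.36 (SE, 2.88-fold, adjusted p = 0.039 by limma), in Kit−J against Kit−D cells by 1.72 ± 0.36 (adjusted p = 0.00877) and in Kit+D against Kit−D cells by 1.22 ± 0.32 (adjusted p = 0.0216). Kit+J and fresh Kit+ arrays did not overlap for Ddx58 either, and their difference was 1.19 ± 0.32 with an adjusted p of 0.331. The Kit+D against Kit−D call was lost without Kit+D replicate 3 (0.82, adjusted p = 0.0715) and without Kit−D replicate 2 (0.99, adjusted p = 0.0999), and the Kit−J against Kit−D call without Kit−J replicate 1 (1.86, adjusted p = 0.0542). The Kit−J against Kit− call was lost under 9 of 27 alternatives, among them leaving out any 1 array of those groups, with differences between 1.29 and 1.67 and an adjusted p of up to 0.174.

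Ddx58 is 1 of 13 members, of the 28 with a window in the RefSeq promoter table (GRCm38.p6, 250 bases before to 50 after the annotated start), that hold the ISRE core on either strand, spelled GAAA, any 2 bases, GAAA. The core stands in 3.44% of all 32851 windows of this length and in 3.99% of the 27025 genes they belong to. A match is a string of letters, not evidence of binding. Windows are printed 5′ to 3′ along the gene's strand, with the ISRE core in capitals, for the members with the smallest adjusted p that hold it, and for Ifitm1, which does not. The Ddx58 window has 1 core, on the opposite strand and just after the start, shown because Ddx58 is the member called most often beside Ifitm1.
Ddx58 promoter, chr4:40239776-40240075, minus strand: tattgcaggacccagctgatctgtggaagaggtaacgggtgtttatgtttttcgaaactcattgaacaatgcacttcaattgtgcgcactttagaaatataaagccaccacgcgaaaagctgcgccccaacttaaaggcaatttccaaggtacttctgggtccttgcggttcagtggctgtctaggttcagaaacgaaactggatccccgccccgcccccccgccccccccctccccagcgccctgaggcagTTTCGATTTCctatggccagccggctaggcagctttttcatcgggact

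Ifih1 had a larger estimate than Ddx58, with more spread. Its signal was 7.16, 6.81 and 5.64 in Kit+J, 7.50 and 8.31 in Kit−J, 7.72, 4.55 and 4.12 in Kit+D, 6.48, 4.41 and 4.67 in Kit−D, 4.68, 5.26 and 5.39 in fresh Kit+ and 5.52, 5.29 and 4.49 in fresh Kit−. All OP9-Jag1 arrays lay above all fresh arrays, and so did replicate 1 of both OP9-Dll4 groups, whose other 4 arrays lay at 4.67 or below. The difference in Kit−J against Kit− cells was 2.81 ± 0.86 (adjusted p = 0.135), and it passed under 4 of 27 alternatives, each of which kept Kit+D replicate 1 out of the fit. Dhx58 lay between 3.78 and 5.07 on all arrays, highest on Kit+D replicate 1, and was not called in any of the 11 comparisons.

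Of the transcription factors, Stat2 and Irf9 form the factor that binds the ISRE, and Irf1 and Irf7 are interferon-induced activators. Stat2 had 6.62, 6.14 and 6.18 in Kit+J, 7.09 and 7.40 in Kit−J, 7.14, 5.67 and 6.13 in Kit+D, 6.66, 6.32 and 6.21 in Kit−D, 5.93, 5.80 and 5.52 in fresh Kit+ and 6.21, 6.07 and 5.65 in fresh Kit−. Both Kit−J arrays and Kit+D replicate 1 stood above the other 14 arrays. The Stat2 difference in Kit−J against Kit− cells, 1.27 ± 0.33, had an adjusted p of 0.0646. Irf1 reached 8.23 on Kit−J replicate 1, against 6.39 on Kit−J replicate 2, and its other arrays lay between 5.64 and 7.18. Irf7 ranged from 4.62 to 6.34 and Irf9 from 4.83 to 7.03, and none of the 4 factors was called in any of the 11 comparisons.

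Usp18 removes the ubiquitin-like protein Isg15 from its targets and restrains signalling at the type I interferon receptor, and Trim25 is an E3 ligase that activates Ddx58. Usp18 had 5.33, 5.88 and 5.68 in Kit+J, 6.68 and 6.22 in Kit−J, 5.68, 4.99 and 3.85 in Kit+D, 5.14, 4.88 and 4.79 in Kit−D, 5.15, 5.47 and 4.84 in fresh Kit+ and 4.88, 4.84 and 4.92 in fresh Kit−. The Kit−J arrays were the highest 2 of the 17, and the Kit−D and fresh Kit− arrays lay close together. Usp18 rose by 1.57 ± 0.37 in Kit−J against Kit− cells (adjusted p = 0.0397) and by 1.52 ± 0.37 in Kit−J against Kit−D cells (adjusted p = 0.0214). Without Kit−J replicate 1 these were 1.34 (adjusted p = 0.361) and 1.29 (adjusted p = 0.216). The first call was lost under 11 of 27 alternatives, among them the replicate number as a block (1.44, adjusted p = 0.068) and leaving out any 1 fresh Kit− array, and the second also without Kit−D replicate 2 (1.49, adjusted p = 0.0595) or 3 (1.44, adjusted p = 0.0706).

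Trim25 showed the OP9-Jag1 pattern of Ddx58 at a smaller size. It had 8.51, 7.88 and 8.16 in Kit+J, 8.39 and 7.82 in Kit−J, 8.0, 7.62 and 7.85 in Kit+D, 7.35, 6.91 and 7.63 in Kit−D, 7.52, 7.44 and 7.66 in fresh Kit+ and 7.65, 7.60 and 7.39 in fresh Kit−. All 5 OP9-Jag1 arrays lay above all fresh and all Kit−D arrays. Trim25 rose in Kit−J against Kit−D cells by 0.81 ± 0.23 (adjusted p = 0.0424), a call that was lost under 15 of 27 alternatives, with 0.53 (adjusted p = 0.424) without Kit−J replicate 1. Against fresh Kit+ cells its difference in Kit+J was 0.64 ± 0.21, with an adjusted p of 0.462.

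The OAS proteins make a short adenylate chain that activates an RNase against viral RNA, and the Oasl proteins are their relatives. Oas2 had 5.35, 5.35 and 4.98 in Kit+J, 6.16 and 5.45 in Kit−J, 5.24, 5.32 and 4.84 in Kit+D, 5.02, 4.74 and 4.94 in Kit−D, 5.36, 5.23 and 5.22 in fresh Kit+ and 5.16, 5.32 and 5.21 in fresh Kit−. The Kit−J arrays were again the highest 2 of 17, the second by little. Oas2 rose by 0.91 ± 0.21 in Kit−J against Kit−D cells (adjusted p = 0.015), which became 0.55 (adjusted p = 0.247) without Kit−J replicate 1 and 0.83 (adjusted p = 0.054) without Kit−D replicate 2. Oasl1 had 7.26 on Kit+D replicate 1, its highest value, and 6.66 and 6.35 in Kit−J, and Oasl2 had 6.41, its highest, on the same array and 5.99 on each Kit−J array. Oas3 stayed between 3.56 and 5.24, and these 3 genes were not called.

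The IFIT proteins bind viral RNA that lacks the host's cap methylation, and their genes lie next to each other. Ifit3 had 4.34, 4.12 and 5.29 in Kit+J, 6.54 and 7.31 in Kit−J, 7.84, 3.07 and 3.73 in Kit+D, 6.41, 3.42 and 4.10 in Kit−D, 4.15, 3.51 and 3.86 in fresh Kit+ and 4.01, 4.08 and 3.82 in fresh Kit−. Both Kit−J arrays and replicate 1 of both OP9-Dll4 groups were at or above 6.41 and the other 13 arrays at or below 5.29. The same 4 arrays were the highest for Ifit2, at 5.84 and 5.28 in Kit−J, 6.81 on Kit+D replicate 1 and 5.94 on Kit−D replicate 1, with no other array above 4.84. For Ifit1 they had 5.81 and 5.74, 7.30 and 5.38, and Kit+J replicate 1 reached 5.39. The differences in Kit−J against Kit− cells were 2.96 ± 1.1 for Ifit3, 1.52 ± 0.70 for Ifit1 and 1.34 for Ifit2, with adjusted p of 0.22, 0.36 and 0.351. Without replicate 1 of both OP9-Dll4 groups, a choice made after the values were seen, all 3 passed against both fresh Kit− and Kit−D cells. All 3 genes were highest of their group on the arrays left out. Leaving these arrays out therefore lowered the Kit−D levels and the shared spread by construction.

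The IFITM proteins sit in cell membranes and block fusion of viruses, and Ifitm1 and Ifitm3 are also known in the mouse as fragilis genes of primordial germ cells. Ifitm1 had 11.28, 11.48 and 11.25 in Kit+J, 10.98 and 11.34 in Kit−J, 11.50, 11.13 and 11.52 in Kit+D, 9.47, 8.09 and 8.44 in Kit−D, 11.41, 11.18 and 11.23 in fresh Kit+ and 9.95, 10.45 and 9.74 in fresh Kit−. The arrays fell into 3 levels that did not overlap, with all Kit+ groups and Kit−J on top, fresh Kit− below them and Kit−D lowest. Ifitm1 rose by 2.72 ± 0.28 in Kit+D against Kit−D cells (adjusted p = 3.64e-05), by 2.50 ± 0.31 in Kit−J against Kit−D cells (5.65-fold, adjusted p = 0.000216) and by 1.22 ± 0.28 in fresh Kit+ against Kit− cells (adjusted p = 0.0243). The first 2 calls were kept under all 27 alternatives. The fresh call was lost with housekeeping scaling (1.0, adjusted p = 0.0718) and without any 1 fresh Kit+ array or without fresh Kit− replicate 1 or 3, with differences between 1.07 and 1.27. In Kit−D against fresh Kit− cells the difference was −1.38 ± 0.28 (adjusted p = 0.0563), and it passed under 4 of 27 alternatives, at −1.78 without Kit−D replicate 1 (adjusted p = 0.00685).

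The Jag1 minus Dll4 difference of Ifitm1 was −0.05 in Kit+ cells and 2.50 in Kit− cells, an interaction of −2.55 ± 0.42 (adjusted p = 0.0108). It rests partly on arrays for which a descriptive line of the labels names the opposite Kit population, both Kit−J arrays among them. The Kit signal of Kit−J also overlapped that of Kit+J. An effect of the ligand and a difference in gate or label cannot be told apart here. A second probe set for Ifitm1, not chosen because it was dimmer, gave group means of 10.76 in Kit+J, 10.58 in Kit−J, 11.16 in Kit+D, 8.16 in Kit−D, 10.77 in fresh Kit+ and 9.24 in fresh Kit−, with fresh Kit− again between Kit−D and the other groups. Primordial germ cell markers followed Ifitm1 by group mean, though not on every array: the mean of 12 of them, relative to fresh Kit−, was 1.27 to 1.61 in Kit+J, 1.12 and 0.81 in Kit−J, −1.85, 1.27 and 1.96 in Kit+D, −2.34 to −0.85 in Kit−D and 1.01 to 1.38 in fresh Kit+. Of the 12 markers, 8 rose in Kit−J against Kit−D cells and 5 in Kit+D against Kit−D cells, and 0 fell, where 9.37% and 13.1% of all genes passed. The Kit+D array with the germ cell mean of −1.85, replicate 1, had Ifitm1 at 11.50 and the leukocyte marker mean of 1.73. Within Kit−D the array with the lowest germ cell mean, replicate 1 at −2.34, had the highest Ifitm1, 9.47. The part of germ cells in the result was not tested.

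Ifitm2 and Ifitm3 followed Ifitm1 at a smaller size by group mean, though not on every array. Ifitm2 had 10.68, 10.98 and 10.70 in Kit+D, against 9.61, 9.93 and 10.00 in Kit−D, with 10.83, 10.63 and 10.05 in Kit+J, 10.27 and 10.77 in Kit−J, 11.03, 10.54 and 10.80 in fresh Kit+ and 10.00, 10.21 and 10.39 in fresh Kit−. Ifitm2 rose by 0.94 ± 0.21 in Kit+D against Kit−D cells (adjusted p = 0.00962), with no overlap between these groups, and this was lost only when Kit+D replicates 1 and 3 and the third Kit−D array were left out together (1.21, adjusted p = 0.0533). Ifitm3 had 10.53, 11.29 and 11.48 in Kit+D, against 10.03, 9.93 and 10.76 in Kit−D, with 11.35, 11.13 and 11.21 in Kit+J, 11.03 and 11.10 in Kit−J, 11.23, 10.95 and 11.31 in fresh Kit+ and 10.41, 10.17 and 10.48 in fresh Kit−. Ifitm3 rose by 0.86 ± 0.24 in the same comparison (adjusted p = 0.0283), although Kit−D replicate 3 lay above Kit+D replicate 1. The Ifitm3 call was lost without Kit−D replicate 1 or 2 or Kit+D replicate 2 or 3, with differences between 0.67 and 0.77. Of the 3 probe sets of Ifitm2 the brightest is shown. The second gave group means of 10.19 in Kit+D, 9.625 in Kit−D and 9.902 in fresh Kit−. The third gave 9.788, 9.263 and 9.249, so Kit−D did not lie below fresh Kit− there. Members of this family are alike in sequence, so their probe sets may share signal.

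The 3 IFITM windows are shown because the genes moved together by group mean while these windows differ in this letter search. The windows are not placed alike. The Ifitm3 window spans the outer start of its gene, at 141010744. The Ifitm1 and Ifitm2 windows lie inside genes annotated from 140967429 to 140969827 and from 140954837 to 140959686, and do not cover the outer starts of these genes. The Ifitm2 window holds 1 ISRE core before the start, the Ifitm3 window 2 cores just after it, and the Ifitm1 window none in these 300 bases.
Ifitm1 promoter, chr7:140967826-140968125, plus strand: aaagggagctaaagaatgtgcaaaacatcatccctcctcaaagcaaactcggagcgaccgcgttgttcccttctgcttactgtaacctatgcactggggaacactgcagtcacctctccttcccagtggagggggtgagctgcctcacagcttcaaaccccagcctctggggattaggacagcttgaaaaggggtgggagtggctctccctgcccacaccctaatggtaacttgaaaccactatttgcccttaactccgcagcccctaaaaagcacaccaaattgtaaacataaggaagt
Ifitm2 promoter, chr7:140955912-140956211, minus strand: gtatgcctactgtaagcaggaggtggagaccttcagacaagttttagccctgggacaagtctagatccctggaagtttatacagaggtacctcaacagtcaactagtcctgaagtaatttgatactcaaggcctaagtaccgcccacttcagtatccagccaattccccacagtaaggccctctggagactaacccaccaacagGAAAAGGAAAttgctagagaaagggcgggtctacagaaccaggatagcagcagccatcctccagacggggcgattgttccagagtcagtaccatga
Ifitm3 promoter, chr7:141010695-141010994, minus strand: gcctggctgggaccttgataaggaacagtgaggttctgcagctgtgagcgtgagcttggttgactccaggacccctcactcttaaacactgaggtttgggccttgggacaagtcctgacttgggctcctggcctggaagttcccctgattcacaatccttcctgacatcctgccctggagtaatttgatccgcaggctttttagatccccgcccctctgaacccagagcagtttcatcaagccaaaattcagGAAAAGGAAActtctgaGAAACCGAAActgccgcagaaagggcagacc

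Bst2 (tetherin) holds budding viruses at the cell surface. It had 6.32, 6.69 and 6.34 in Kit+J, 6.02 and 5.88 in Kit−J, 6.83, 7.02 and 7.25 in Kit+D, 6.23, 5.98 and 6.61 in Kit−D, 5.56, 5.66 and 5.88 in fresh Kit+ and 5.79, 5.75 and 5.64 in fresh Kit−. The Kit+D arrays were the highest 3 of the 17, and replicate 1 was the lowest of them, unlike in the IFIT genes. Bst2 rose by 1.33 ± 0.17 in Kit+D against fresh Kit+ cells (adjusted p = 0.00346) and by 0.76 ± 0.17 in Kit+D against Kit−D cells (adjusted p = 0.00993). The first call was kept under 26 of 27 alternatives and lost in a fit of those 2 groups alone (adjusted p = 0.0899). The second was lost without Kit−D replicate 2 (0.61, adjusted p = 0.0544), with housekeeping scaling and in a fit of 2 groups. Kit+J and fresh Kit+ arrays did not overlap, and the difference was 0.75 ± 0.17, with an adjusted p of 0.253. Bst2 in Kit+J against Kit+D cells gave −0.58 ± 0.17 (adjusted p = 0.0925). Of 10 erythroid markers 2, the embryonic globin genes Hba-x and Hbb-y, rose beside Bst2 in Kit+D against fresh Kit+ cells, by 4.41 ± 0.54 and 4.29 ± 0.55 (adjusted p = 0.00282 and 0.00346). The mean of the 10 lay between −0.36 and 0.54 in Kit+D, against −0.92 to −0.76 in fresh Kit+. This shift of the mean rested largely on the 2 globin genes. Of the 10 markers 6 were positive, with a median difference of 0.18, against −0.02 over all genes. The part of red cells, which the Ter119− gate was to leave out, was not tested in the Bst2 result. Its window is shown because it holds 2 ISRE cores that overlap by 4 bases.
Bst2 promoter, chr8:71537423-71537722, minus strand: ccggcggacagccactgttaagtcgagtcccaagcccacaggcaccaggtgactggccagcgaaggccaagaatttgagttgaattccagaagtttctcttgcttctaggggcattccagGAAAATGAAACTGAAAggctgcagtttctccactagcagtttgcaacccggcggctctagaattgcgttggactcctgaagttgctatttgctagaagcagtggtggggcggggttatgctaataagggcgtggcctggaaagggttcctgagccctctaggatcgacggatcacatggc

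Among the other antiviral effectors, Mx2 is a dynamin-like GTPase, Rsad2 (viperin) makes a chain-terminating nucleotide, Cmpk2 lies beside it and is a nucleotide kinase, and Rtp4 is a chaperone of membrane receptors. Mx2 had 5.43, 4.27 and 5.57 in Kit+J, 6.80 and 4.38 in Kit−J, 7.77, 4.33 and 3.60 in Kit+D, 5.67, 3.44 and 3.62 in Kit−D, 3.71, 3.14 and 3.41 in fresh Kit+ and 4.08, 4.09 and 3.36 in fresh Kit−. All 5 OP9-Jag1 arrays lay above all fresh arrays, and replicates within each cultured group differed by more than 1. Rsad2 had 6.62 and 5.54 in Kit−J, 7.68 on Kit+D replicate 1 and 6.38 on Kit−D replicate 1, and Rtp4 had 5.84 and 6.93 in Kit−J and 7.40 and 5.83 on the same 2 OP9-Dll4 arrays. None of Mx2, Rsad2 and Rtp4 was called, and Rtp4 had the larger estimate in Kit−J against Kit− cells, 2.13 ± 0.72 (adjusted p = 0.188). Mx1 ranged over all arrays from 3.05 to 5.24, Cmpk2 from 3.47 to 4.61, Eif2ak2 (PKR, which stops translation) from 5.08 to 7.35, Xaf1 from 4.86 to 7.11 and Ifi35 from 5.25 to 7.46, with no call.

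Parp14 and Parp9 are ADP-ribosyltransferases, and Dtx3l is the E3 ligase that binds Parp9 and neighbours it in the genome. Parp14 had 5.43, 5.63 and 6.24 in Kit+J, 6.96 and 6.33 in Kit−J, 7.63, 5.43 and 5.26 in Kit+D, 6.57, 5.00 and 5.09 in Kit−D, 5.19, 4.92 and 5.28 in fresh Kit+ and 5.14, 5.52 and 5.16 in fresh Kit−. The highest 4 arrays were those of Ifit3. Parp9 ranged from 4.92 to 7.35, highest on Kit+J replicate 1, and Dtx3l from 4.92 to 6.75, highest on Kit+J replicate 3, and none of the 3 was called.

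Psmb8 and Psmb9 are inducible subunits of the immunoproteasome and Tap1 carries peptides to MHC class I molecules, and the 3 genes are neighbours. Psmb9 had 7.85, 7.02 and 6.65 in Kit+J, 9.22 and 8.68 in Kit−J, 9.13, 7.01 and 6.08 in Kit+D, 7.96, 6.44 and 6.67 in Kit−D, 8.02, 8.55 and 8.28 in fresh Kit+ and 8.39, 7.16 and 8.40 in fresh Kit−. All 3 Kit+J arrays lay below all fresh Kit+ arrays, while both Kit−J arrays lay above all fresh Kit− arrays. The differences were −1.12 ± 0.62 in Kit+J against Kit+ (adjusted p = 0.842) and 0.97 ± 0.69 in Kit−J against Kit− (adjusted p = 0.565), and their own difference, −2.08 ± 0.93, had an adjusted p of 0.509. Psmb8, picked out after its values were seen, also lay lower on all Kit+J arrays, at 5.59, 5.46 and 6.46, against 6.66, 7.0 and 7.35 in fresh Kit+, a difference of −1.17 ± 0.61 (adjusted p = 0.812). Psmb8 and Psmb9 were thus the members whose estimates ran against the positive median of this comparison by the most. Tap1 ranged from 4.64 to 6.18.

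Of the interferon-inducible GTPases, Irgm1 had 5.88, 5.75 and 4.87 in Kit+J, 6.10 and 7.19 in Kit−J, 6.72, 5.91 and 5.98 in Kit+D, 6.44, 5.54 and 5.88 in Kit−D, 5.23, 4.75 and 4.99 in fresh Kit+ and 5.49, 5.44 and 6.16 in fresh Kit−. All Kit+D arrays lay above all fresh Kit+ arrays, with a difference of 1.21 ± 0.35 and an adjusted p of 0.0938. Gbp3 ranged from 4.20 to 6.71, highest on Kit+D replicate 1.

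**Figure D3:**
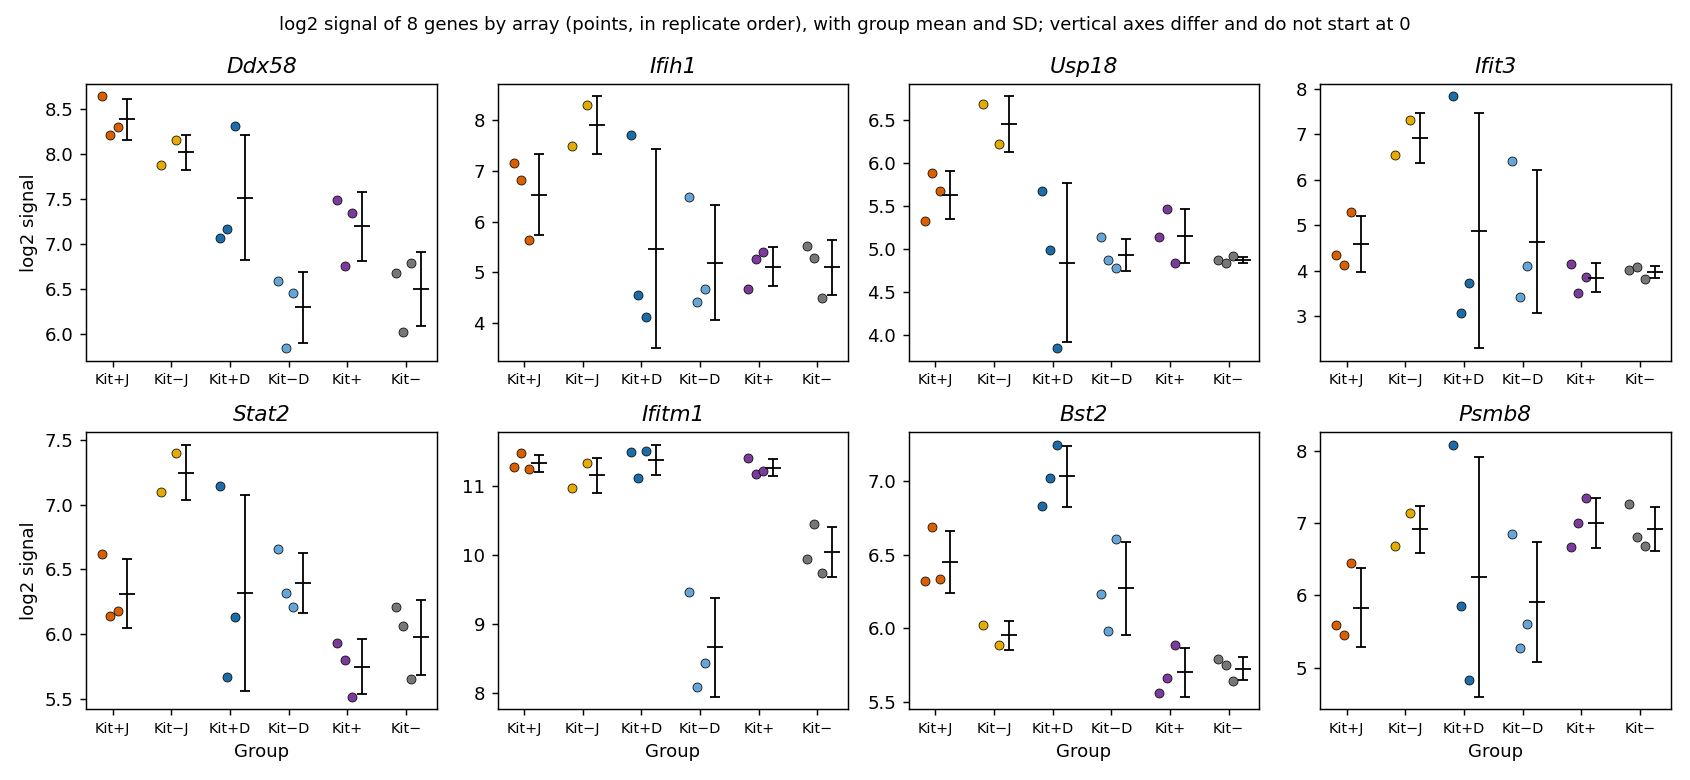
Log2 signal of Ddx58, Ifih1, Usp18, Ifit3, Stat2, Ifitm1, Bst2 and Psmb8 on each array (points, in replicate order within a group), with the group mean and standard deviation beside them and a vertical axis per gene that does not start at 0. Ddx58 is high in both OP9-Jag1 groups, Ifit3, Ifih1 and Stat2 are high on replicate 1 of Kit+D, where Ifit3 is at 7.84, and Ifitm1 is low in the Kit− groups other than Kit−J.

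The within-group split of the OP9-Dll4 arrays touched most of the list. In Kit+D 28 of 36 members, and in Kit−D 27 of 36, were highest on replicate 1, 24 of them in both groups, and replicate 1 exceeded the higher of the other replicates by more than 1 for 22 and 11 members. The largest gaps were those of Ifit3, 4.12 in Kit+D and 2.31 in Kit−D. Bst2 and Ddx58 in Kit+D did not follow it. The like counts over all genes were not made. Whether the split was particular to the list was therefore not tested. Of the 12 germ cell markers 0 were highest on replicate 1 in Kit+D and 1 in Kit−D. The leukocyte and macrophage markers moved with the split, all 18 of 18. Their mean was −0.56 and −0.35 on the Kit−J arrays, against −1.72 and −1.77 on Kit−D replicates 2 and 3 and 0.60, −0.24 and −0.36 in fresh Kit−. In Kit−J against Kit−D cells 12 of the 18 were positive with a median difference of 0.44, where 60.1% of all genes were positive, and 0 passed. The part of such cells in the member values was not tested.

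**Figure D4:**
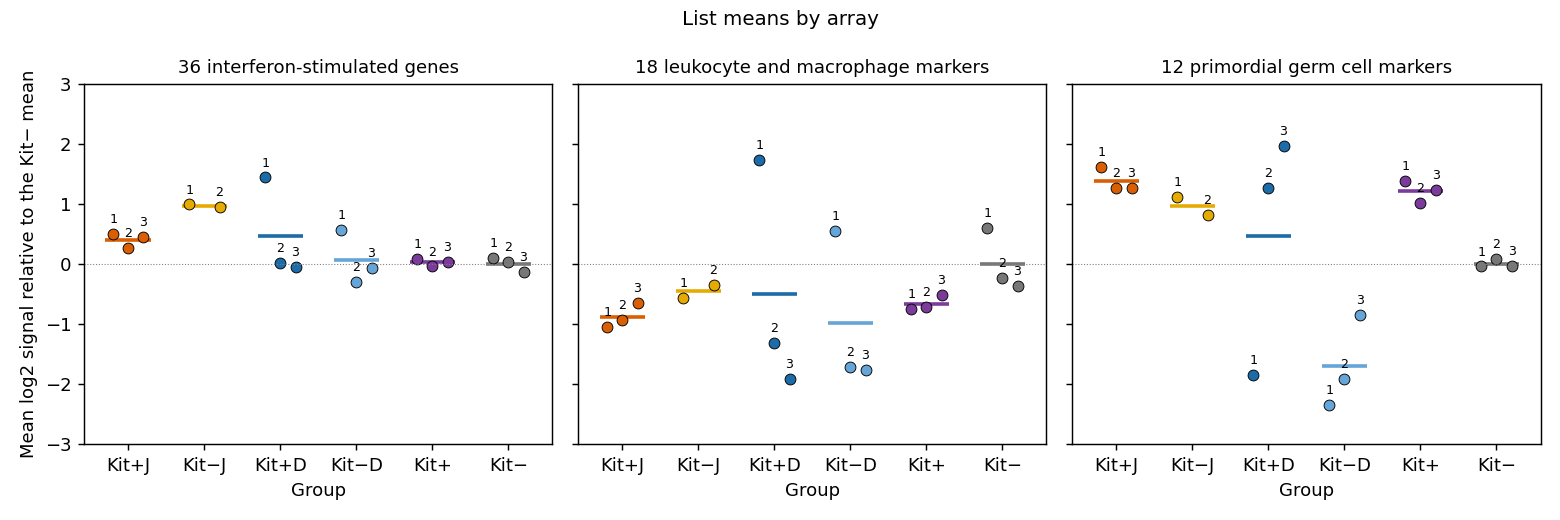
Mean log2 signal per array, relative to the fresh Kit− mean, of the 36 members, 18 leukocyte and macrophage markers and 12 primordial germ cell markers (points numbered by replicate, lines for group means). Replicate 1 of Kit+D is the highest array for members (1.44) and for leukocyte markers (1.73) and among the lowest for germ cell markers (−1.85), while the Kit−J arrays are high for members and below 0 for leukocyte markers.

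Without replicate 1 of both OP9-Dll4 groups, the same model called 11 members in Kit−J against Kit− cells, all higher, where 2.68% of all genes passed: Ddx58, Usp18, Ifih1, Ifit1, Ifit2, Ifit3, Ifitm1, Parp14, Rsad2, Rtp4 and Stat2. The estimates of this comparison do not use the arrays left out, which enter only through the shared spread. Set against Kit−D, Kit−J cells had 16 members, all higher, where 9.7% of all genes passed, among them Ifih1 at 3.37. Kit+J cells set against Kit+D had 1, Ifih1 at 2.20, where 1.19% of all genes passed. The arrays left out were those on which 28 of 36 members in Kit+D and 27 of 36 in Kit−D were highest. Leaving them out therefore lowered the OP9-Dll4 levels and the spread of such members by construction. These counts are a description and no independent support for a member difference. The calls of the full model leaned on single arrays. Leaving out replicate 1 of Kit−J gave 0 members against fresh Kit− and 1 against Kit−D, and leaving out replicate 2 of Kit−J gave 4 against fresh Kit− (Irf1, Mx1, Oas2 and Usp18). Members called against fresh Kit− also numbered 0 when any 1 fresh Kit− array, Kit−D replicate 3 or Kit+J replicate 3 was left out.

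The rest of the pathway was followed in lists of interferon ligands (15 of 20 measured), receptors (6 of 6), receptor-proximal signalling (13 of 14), nucleic acid sensing (15 of 18) and 43 of 54 further interferon-stimulated genes. Between Kit−J and fresh Kit− cells only the last list had calls, 2 higher and 0 lower of 43, where 2.14% of all genes passed. These were Rnf213, a large ubiquitin ligase, by 1.51 ± 0.27 (adjusted p = 0.00701), and Ddx60, a helicase that assists Ddx58, by 0.86 ± 0.19 (adjusted p = 0.025). Rnf213 had 7.19, 7.11 and 6.74 in Kit+J, 7.57 and 6.93 in Kit−J, 7.13, 6.43 and 6.67 in Kit+D, 6.04, 5.49 and 5.45 in Kit−D, 6.32, 6.43 and 6.96 in fresh Kit+ and 5.78, 5.66 and 5.78 in fresh Kit−. The median of the 43 genes was 0.41 for Kit−J set against fresh Kit− and 0.52 set against Kit−D, where all genes had 0.09 and 0.11, and 0.10 for Kit+J set against fresh Kit+, where no gene of the 5 lists was called. Against Kit−D cells, Kit−J cells had in the further list 4 higher and 0 lower of 43 (Sp100, Ddx60, Lgals9 and Rnf213). This was near the share of all genes that passed, 9.37%, only with both directions counted, 658 higher and 1211 lower of 19937. Kit+D against Kit−D had 8 higher and 1 lower of 43, where 13.1% of all genes passed. Among them was Psme2, a proteasome activator, at 1.01 ± 0.19 (adjusted p = 0.00285), and the gene that was lower was Nlrc5, an activator of MHC class I genes. Nlrc5 also fell in Kit+D against fresh Kit+ cells, with a difference of −0.78 ± 0.18 (adjusted p = 0.0428), where 1.42% of all genes passed. The ligand interaction called Ddx60, at −1.19 ± 0.25 (adjusted p = 0.0284), where 1.98% of all genes passed.

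The receptors gave no call in any of the 11 comparisons. The median of the 6 in Kit−J cells was −0.83 against fresh Kit−, with 5 of 6 negative, and −0.68 against Kit−D, so receptor estimates and member estimates had opposite signs in these comparisons. Of receptor-proximal genes, Jak1, the kinase of the receptor chain, fell in Kit−J against Kit−D cells, with a difference of −1.32 ± 0.26 (adjusted p = 0.00699), and Ptpn6, a phosphatase that damps cytokine signalling, rose by 1.65 ± 0.40 (adjusted p = 0.0191). In Kit+J against Kit+D cells Tyk2 and Irf3 fell, with differences of −0.66 ± 0.16 and −1.01 ± 0.23 (adjusted p = 0.0488 and 0.0388). Kit+D against Kit−D cells had 2 higher, Tyk2 and Ptpn6, and 1 lower, Irf2, where 13.1% of all genes passed. The share of all genes that passed was 9.37% in Kit−J against Kit−D cells and 2.25% in Kit+J against Kit+D cells. Tlr3, an endosomal receptor for double-stranded RNA, was the only call among 15 sensing genes, and it was lower in Kit−J against Kit−D (−1.12 ± 0.19, adjusted p = 0.00238), in Kit+D against Kit−D (−1.0 ± 0.17, adjusted p = 0.00165) and in fresh Kit+ against Kit− cells (−0.79 ± 0.17, adjusted p = 0.0166).

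Of the ligands, Ifna12 rose in Kit−J against Kit−D cells by 0.97 ± 0.23 (adjusted p = 0.0195) and Ifna16 in Kit+D against Kit−D cells by 0.63 ± 0.19 (adjusted p = 0.0376), on genes of a family alike in sequence. Each was 1 of 15 ligands measured, where 9.37% and 13.1% of all genes passed. Ifnb1, which encodes interferon beta, was not called and was picked out after its values were seen. It had 3.27, 3.92 and 3.55 in Kit+J, 5.92 and 3.45 in Kit−J, 8.11, 3.48 and 3.95 in Kit+D, 6.94, 3.60 and 3.23 in Kit−D, 3.38, 3.50 and 3.84 in fresh Kit+ and 5.58, 4.70 and 3.48 in fresh Kit−. Its highest arrays were replicate 1 of Kit+D, Kit−D and Kit−J and of fresh Kit−, with member means of 1.44, 0.57, 0.99 and 0.10. Kit−J replicate 2 had a member mean of 0.95 with Ifnb1 at 3.45. The part of Ifnb1 in the member values was not tested.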

How the data were processed

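RNA of sorted cells was amplified (NuGEN Ovation Pico WTA) and hybridised to Affymetrix Mouse Gene 1.0 ST arrays. The values were deposited by the authors as log2 signals after RMA, which corrects background, quantile-normalizes and summarises probes into probe sets, and compresses differences of dim genes. The RMA version is not given in the sources used here, and scanner files were not used here. Of 34760 probe sets, 21640 carried 1 gene symbol in the platform annotation, 1321 several and 11799 none, and the brightest single-symbol probe set of each gene by mean over all arrays gave 19937 genes. Values ran from 1.24 to 13.58 and array medians from 5.22 to 5.38, and at most 1.1% of values were identical between any 2 arrays. The number of arrays, 2 or 3 a group, limits the precision. The titles call the arrays biological replicates, and how many embryos were pooled for each is not given.

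All 17 arrays entered 1 limma group-means model (limma 3.58.1, R 4.3.3, lmFit and eBayes, two-sided) with 11 contrasts and Benjamini-Hochberg adjustment over all genes, tested on simulated data first. Figures used Python 3.11.15 and matplotlib 3.10.9. The members, marker lists and pathway lists were chosen with earlier results of these data known. Per-array values are given for members called in a comparison and for the member of each role with the widest range of group means, and pathway genes are named where called, up to 4 with the smallest adjusted p for each list and comparison, and where a count was 1. Deviations from group means of Kit+D and Kit−D arrays with the same number correlated by 0.18 to 0.46, against at most 0.13 for other numbers. These arrays come, by protocol, from cultures sorted into both gates, and were treated as paired only in the replicate block. The OP9-Jag1 cultures were sorted so as well, but same-number Kit−J and Kit+J arrays correlated by −0.263 to −0.114, and other numbers by up to 0.263. The paper excluded 1 Kit−J sample, so the numbers of these groups may not match. The block ran by number over all 17 arrays, so for Kit−J comparisons it is no check of pairing. The main model holds no term for the pairing, so its Kit+D against Kit−D estimates, standard errors and adjusted p values do not use it. In no other pair of groups did every same-number correlation exceed those of other numbers. Alternatives were the dim-gene filter (group mean over 5.55 in at least 1 group, 11523 genes, 30 members), repeated quantile normalization, housekeeping scaling, array weights, averaging all probe sets of a gene, a trended robust prior, the replicate block, fits of only the groups compared, and leaving out arrays.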

Additional observations from a re-analysis of the deposited data

Results flagged for a closer look

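The Jag1 minus Dll4 difference of Ifitm1 was not the same in the 2 Kit gates, which was tested as an interaction. Jag1 minus Dll4 was −0.05 in Kit+ cells and 2.50 in Kit− cells, and the difference between the 2 was −2.55 ± 0.42 (adjusted p = 0.0108 by limma). It kept its sign under all 27 alternatives, from −2.95 to −2.18, and passed under 24 of them. For both Kit−J arrays a descriptive line of the labels names the opposite Kit population. Their endothelial marker means, −2.19 and −1.82, lay closer to fresh Kit+ than to Kit−D. An effect of the ligand and a difference in gate or label cannot be told apart in this result.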

How the results depend on the processing

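The 15 differences called for single members kept their sign under the 27 alternatives, and Kit+J against Kit+ called 0 members under each of them. Members called in Kit−J against Kit− (2 in the full model) numbered 1 with array weights, 1 with the replicate block, which left the paired Kit+D against Kit−D count at 5 and changed no other count by over 1.5 times, 8 in a fit of only the groups compared, 8 when the third array of both OP9-Dll4 groups and Kit+D replicate 1 were left out, and 11 without replicate 1 of Kit+D and Kit−D, a choice made after seeing the data. Kit−J against Kit−D (5) gave 9 with repeated quantile normalization, 3 with housekeeping scaling, 3 in a fit of only the 2 groups and 16 without the 2 replicates 1. Kit+D against Kit−D (5) gave 3 with housekeeping scaling, 3 without the 3 arrays and 2 in a fit of 2 groups. Kit+D against Kit+ (1) gave 2 with housekeeping scaling, 2 with array weights, 2 without the replicates 1 and 0 in a fit of 2 groups. Kit+ against Kit− (1) gave 0 with housekeeping scaling and 2 with array weights, without the 3 arrays, without the replicates 1 and in a fit of 2 groups. Kit−D against Kit− (0) gave 2 with array weights and 1 without the replicates 1. Kit+J against Kit+D (0) gave 1 without the 3 arrays and 1 without the replicates 1, Kit+J against Kit−J (0) 1 and the OP9-Jag1 interaction (0) 1 without the replicates 1. The ligand interaction (1) gave 0 with array weights, without the 3 arrays and in a fit of its groups alone.

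Leaving out 1 array at a time gave 0 to 6 in Kit−J against Kit− (6 without Kit+D replicate 1), 1 to 12 in Kit−J against Kit−D (12 without Kit+D replicate 1), 2 to 5 in Kit+D against Kit−D, 0 to 2 in Kit+ against Kit−, 0 to 2 for Kit+J set against Kit+D, 0 to 1 in Kit−D against Kit−, Kit+J against Kit−J and the OP9-Jag1 interaction, and 1 to 4 in the ligand interaction. Where this left Kit−J with 1 array, its spread was taken to be that of the other groups. The member mean moved with housekeeping scaling to 0.186 in Kit+J, 0.917 in Kit−J and −0.20 in fresh Kit+, where it was 0.03 and so changed sign, and with quantile normalization to 1.02 in Kit−J. That scaling shifted the median of all genes by 0.16 in Kit+D against Kit+, −0.23 in Kit+ against Kit−, −0.15 in Kit+J against Kit+D and −0.17 in Kit+J against Kit−J. The cause of these changes was not tested. Background correction and slide could not be varied on summarised values.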
